A study of Mus musculus with 10 samples.

Results

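The genes described here encode the proteins of the cytosolic ribosome of the mouse. They were taken by symbol from the deposited expression table: names that begin with Rpl, Rps or Rplp, followed by a number and at most 1 of the letters a, x or l. The rule found 79 of the 37447 genes of the table, 48 of the large (60S) subunit and 31 of the small (40S) subunit. It leaves out rows named as pseudogenes, and ribosomal genes with other names, such as Fau, which encodes a ribosomal protein fused to a ubiquitin-like protein. The libraries were made from microglia, the resident macrophages of the brain, from the brainstem of mice aged 6 weeks. In the first group (LCM_GFP, 4 libraries, 3 female and 1 male) GFP-expressing microglia were cut by laser capture microdissection from frozen sections of briefly fixed tissue, and RNA was recovered with proteinase K and acid phenol. The second group (FACS_GFP, 3 libraries, 2 female and 1 male) held GFP-expressing microglia from dissociated tissue, enriched on a Percoll gradient, sorted by flow cytometry and extracted with TRIzol. The third (FACS_WT, 3 male libraries) held wild-type C57BL/6 microglia that were sorted and extracted in that same way. cDNA of every library was amplified by the Ovation RNA-Seq procedure. The labels do not name the promoter that drives GFP, the strain of the GFP mice, or the number of cells or animals behind a library. Isolation, fixation and RNA extraction changed together, so their effects cannot be told apart. Genotype cannot be told apart from sex except through the single male FACS_GFP library.

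A ribosome holds 1 copy of nearly every one of these proteins, and growing cells make them in matched amounts. In mammals their mRNAs typically begin with a 5′ terminal oligopyrimidine (TOP) tract, a C followed by a run of pyrimidines, through which mTORC1 and the La-related protein LARP1 adjust their translation together. The genes are among the most highly expressed in most cell types, microglia included. Several are used as reference genes in quantitative PCR, and most have processed pseudogenes or near-identical copies elsewhere in the genome.

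The stretch around the start of transcription is shown for 8 of the genes because the TOP tract is looked for there. The first 6 hold a tract of a C followed by at least 4 bases that are each C or T, beginning within 5 bases of the annotated start. Rpl10 and Rps25 had no such tract in this window. Both are described below as lower in the laser-captured libraries, and so are Rpl7a, Rps9 and Rps10, which hold a tract. Capitals mark the tract from its first C among the searched positions. The base before that C was not checked, so pyrimidines can also precede the capitals, as in Rpl7a, Rpl35, Rps9 and Rpl38. Each run covers 15 bases before and 15 bases from the start, read along the gene's strand from RefSeq on GRCm38.p6. It was searched on that strand alone, since the tract is read in the RNA.
Rpl38 (chr11:114668565-114668594, plus strand): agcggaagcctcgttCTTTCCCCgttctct
Rps10 (chr17:27635230-27635259, minus strand): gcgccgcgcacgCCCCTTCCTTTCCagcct
Rps18 (chr17:33955651-33955680, minus strand): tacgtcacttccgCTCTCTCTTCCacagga
Rpl35 (chr2:39005117-39005146, minus strand): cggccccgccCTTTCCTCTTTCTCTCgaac
Rpl7a (chr2:26910792-26910821, plus strand): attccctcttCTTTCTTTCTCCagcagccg
Rps9 (chr7:3704026-3704055, plus strand): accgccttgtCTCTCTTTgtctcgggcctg
Rpl10 (chrX:74270801-74270830, plus strand): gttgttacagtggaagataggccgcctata
Rps25 (chr9:44407699-44407728, plus strand): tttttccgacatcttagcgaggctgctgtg

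Of the 79 genes, 58 had an entry in the RefSeq table of starts and 21 had none. Such a tract, which can be part of a pyrimidine stretch that begins further upstream, lay within 5 bases of a start in 28 of the 58 genes (48.3%). The same search found it in 21.1% of 26967 other genes. It began exactly at an annotated start in 13 of the 58 (22.4%) and in 2.97% of the other genes. An annotated start can lie some bases from the one used in microglia, so a window without the tract says only that these letters are not there. The median log2 change in LCM_GFP over FACS_GFP was 0.01 for the 28 genes with the tract and −0.02 for the 27 tested genes without it. In LCM_GFP over FACS_WT these medians were −0.10 and −0.36, and in FACS_GFP over FACS_WT −0.15 and −0.30. Whether the 2 sets differ was not tested.

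The cell identity of the libraries bears on each comparison that follows. The summed level of 18 microglial marker genes lay between 2438 and 5778 FPKM (fragments scaled to transcript length and to the mapped fragments of the library) in LCM_GFP libraries, against 8776 to 10623 in FACS_GFP and 10168 to 12823 in FACS_WT libraries. Sums for 12 oligodendrocyte genes were 2686 to 7808 FPKM in LCM_GFP libraries, 21.8 to 26.6 in FACS_GFP libraries and 24.5 to 33.5 in FACS_WT libraries. Sums for 12 neuronal genes were 992 to 2531 FPKM in LCM_GFP libraries, 2.42 to 9.91 in FACS_GFP libraries and 2.39 to 2.63 in FACS_WT libraries. No marker of these 3 lists was at 0 in all LCM_GFP libraries. Opalin was at 0 in all sorted libraries, and Mal, Ugt8a and Syt1 were at 0 in all FACS_WT libraries. Ribosomal proteins are made by every one of these cell types, and the part of the other cells in the values below was not tested. In such bulk libraries fewer cells of a type and less RNA per cell cannot be told apart. The files give neither counts nor depth, so no counting interval is attached to any level.

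Ribosomal protein genes stood among the most highly expressed genes of all 3 groups. Their summed level was 41693, 19005, 20035 and 18715 FPKM in LCM_GFP libraries 1 to 4, 23717, 20741 and 28801 FPKM in FACS_GFP libraries 1 to 3, and 25339, 25519 and 35735 FPKM in FACS_WT libraries 1 to 3. The first laser-captured library had more than any sorted library, and the other 3 had less than any sorted library. As a share of the FPKM of all genes, the sums made up 6.59%, 3.53%, 5.00% and 4.75% in LCM_GFP, 5.25%, 4.64% and 5.42% in FACS_GFP, and 5.36%, 5.89% and 7.66% in FACS_WT libraries. The 10 highest genes of a library alone held 34.4% of the FPKM of the first laser-captured library and 24.5% of the second, against 6.67% to 16.7% in the other 8 libraries. With those 10 genes left out of both sums, the ribosomal share was 10.0%, 4.68%, 5.38% and 4.64% in LCM_GFP libraries, 5.02%, 5.13% and 6.50% in FACS_GFP libraries, and 5.48%, 6.41% and 6.94% in FACS_WT libraries.

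**Figure D1:**
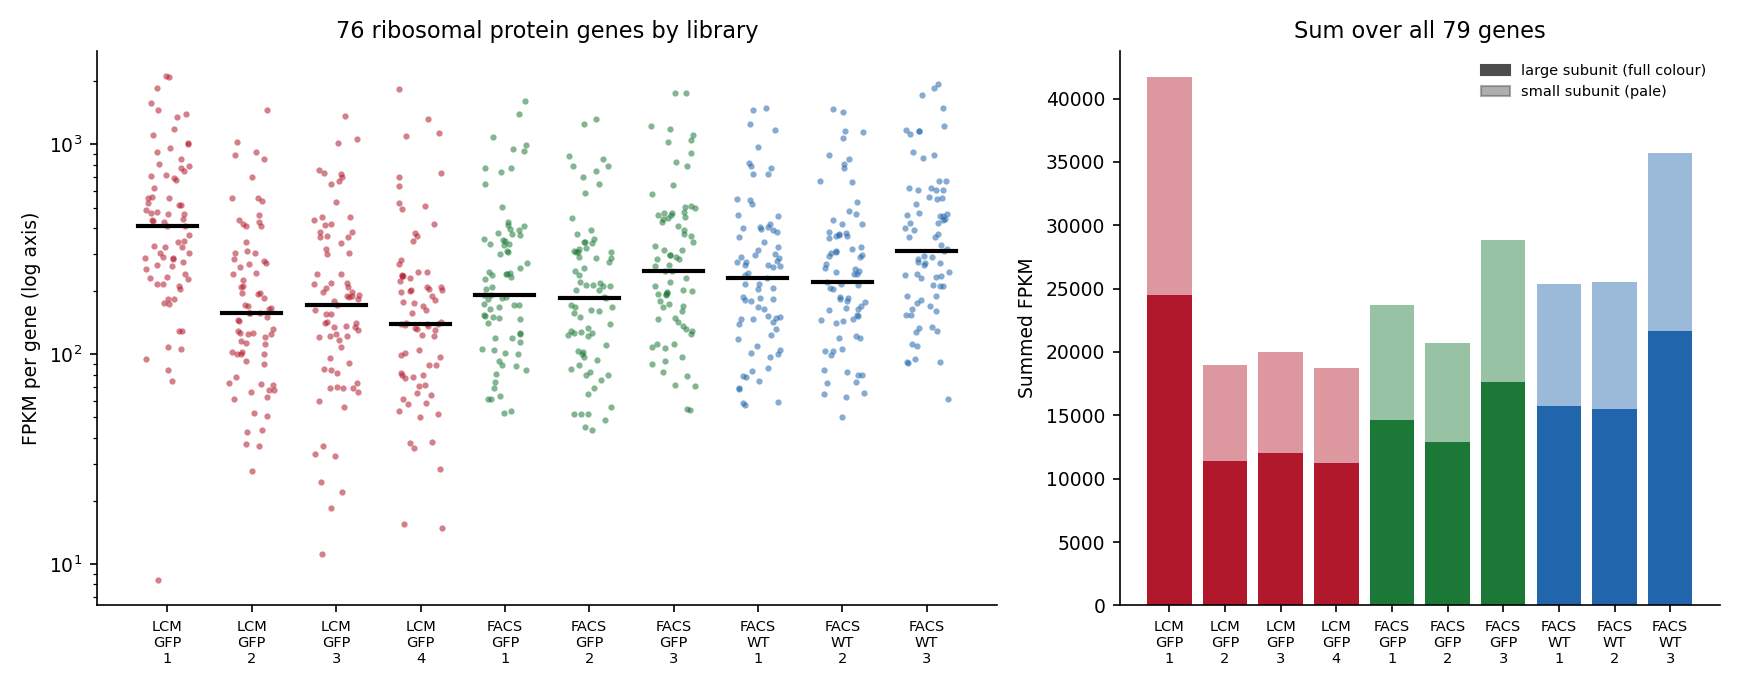
Left, FPKM of the 76 ribosomal protein genes that passed the filter in each library (1 point per gene, log axis), with a black bar at the median of all 79 genes. Right, their summed FPKM, with 60S genes in full colour below and 40S genes in pale colour above: the first LCM_GFP library reaches 41693, and the other 3 LCM_GFP libraries lie between 18715 and 20035.

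Rpl21, a protein of the 60S subunit, and Rps23, which sits in the decoding centre of the 40S subunit, had the highest means over the 10 libraries. Rpl21 had 2099, 1030, 1369 and 1844 FPKM in LCM_GFP libraries, 1604, 1319 and 1758 FPKM in FACS_GFP libraries, and 1494, 1430 and 1489 FPKM in FACS_WT libraries. Rps23 had 2121, 849, 1067 and 1139 FPKM in LCM_GFP, 1396, 1248 and 1767 FPKM in FACS_GFP, and 1460, 1471 and 1936 FPKM in FACS_WT libraries. The groups overlapped for both genes. Rpl11, Rps24, Rps29, Rpl7a, Rpl23a and Rpl30 complete the 8 genes with the highest mean over the 10 libraries, at 740 to 1222 FPKM. At the other end of the genes in general use, Rps27l averaged 42.1 FPKM, Rplp0 53.0 FPKM and Rps3 66.3 FPKM. FPKM is scaled to length, so these levels can be set beside each other, but reads from near-identical copies could be split or lost in the counting and the order is uncertain for genes that have them.

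Of the 4 genes that are paralogs with restricted or induced expression, 3 were at or near 0. Rpl10l, a retrogene of Rpl10 active in the testis, was listed at 0 in all 10 libraries. Rpl3l, the muscle form of Rpl3, was listed at 0 in the 4 LCM_GFP and 3 FACS_GFP libraries and at 0, 0.0158 and 0.0119 FPKM in FACS_WT libraries. Rpl39l, a testis-enriched copy of Rpl39, was listed at 0 in the 4 LCM_GFP libraries. It had 0.176, 0.0625 and 0.148 FPKM in FACS_GFP libraries and 0.0651, 0.628 and 0.525 FPKM in FACS_WT libraries. These 3 genes did not pass the filter (1 FPKM or more in at least 3 of the libraries compared), which left 76 genes for the tests.

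Within a group, ribosomal protein genes moved up and down together. LCM_GFP library 1 held the highest level of its group for 69 of the 76 genes. It did so for 25.0% of all 13733 genes at 1 FPKM or more in at least 3 libraries. FACS_GFP library 3 was the highest of its group for 76 of 76 genes and FACS_GFP library 2 the lowest for 74. There 43.2% and 38.3% of all genes had their extreme. FACS_WT library 3 was the highest of its group for 72 of 76 genes, against 44.3% of all genes. Compared with the other libraries of its group, the median ribosomal protein gene was higher by 1.31 on the log2 scale in LCM_GFP library 1, by 0.38 in FACS_GFP library 3 and by 0.53 in FACS_WT library 3. The median over all genes moved by −0.26, 0.03 and 0.04 in those libraries.

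Other gene sets moved in part with them. The 13 elongation factor genes were higher by a median of 0.73, 0.24 and 0.45 in LCM_GFP library 1, FACS_GFP library 3 and FACS_WT library 3, and the 32 initiation factor genes by 0.75, 0.13 and 0.28. Genes of the mitochondrial ribosome, a separate set of 73, were higher by a median of 0.18 in FACS_GFP library 3 and 0.37 in FACS_WT library 3, and stood at −0.02 in LCM_GFP library 1. In the sorted libraries the movement was not limited to protein synthesis: 11 reference genes that are not ribosomal were higher by a median of 0.19 in FACS_GFP library 3 and 0.32 in FACS_WT library 3, and the 18 microglial markers by 0.19 and 0.34. In LCM_GFP library 1 these 2 sets stood at −0.44 and −0.98. In LCM_GFP library 1 the summed level of 12 proliferation genes was 1052 FPKM, against 31.0 to 211 FPKM in the other LCM_GFP libraries and 85.5 to 108 FPKM in sorted libraries. The same library had 3652 FPKM of globin and other erythroid genes, where LCM_GFP libraries 2, 3 and 4 had 40.9, 1819 and 0.449 FPKM. Its microglial sum, 2438 FPKM, was the lowest of the 10 libraries. The part of these differences in its ribosomal level was not tested.

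**Figure D2:**
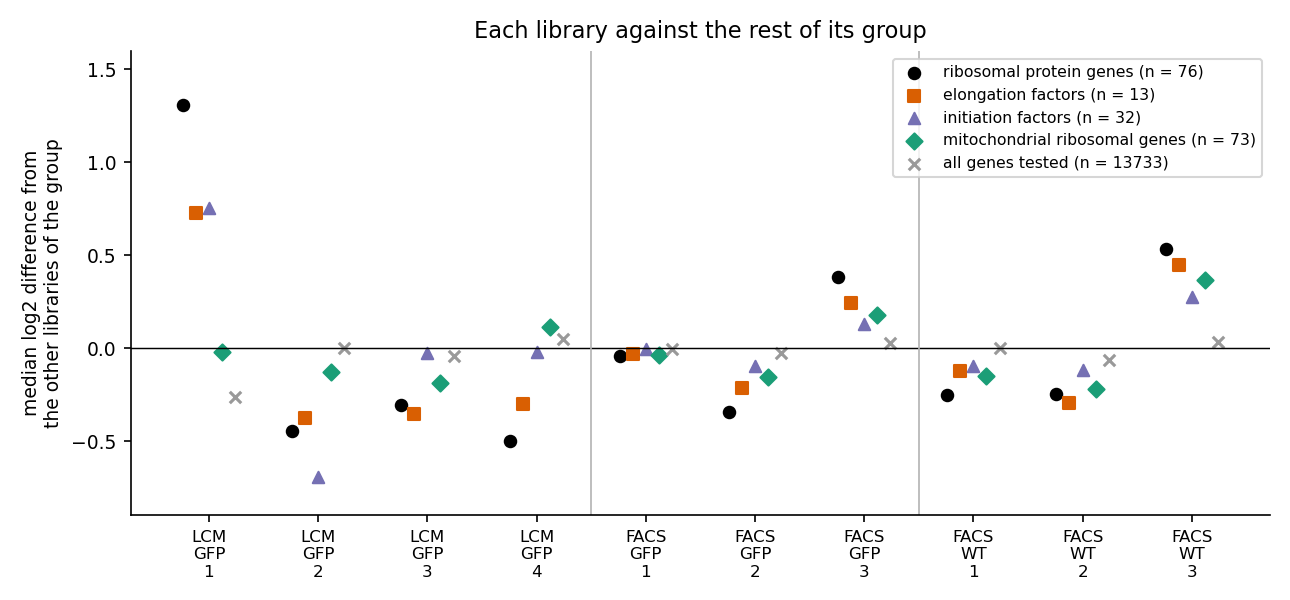
Median log2 difference of each library from the mean of the other libraries of its group, for 5 gene sets. Ribosomal protein genes (black circles) stand at 1.31 in LCM_GFP library 1, 0.38 in FACS_GFP library 3 and 0.53 in FACS_WT library 3, while the median of all genes tested (grey crosses) stays between −0.26 and 0.05.

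The comparison of laser-captured with sorted GFP microglia asks how the isolation method bears on the transcripts recovered. Few ribosomal protein genes differed between LCM_GFP and FACS_GFP beyond the spread of the libraries. None of the 76 rose, and 3 fell: Rpl10, Rpl7a and Rps25 (limma on log2(FPKM + 1), Benjamini-Hochberg adjusted p under 0.05 over 13403 genes). At an unadjusted p under 0.05 limma had 9 of the 76, 8 of them lower, where it had 44.9% of all genes in either direction. Of all genes tested, 12.5% rose and 19.6% fell by the same rule. The median log2 change was −0.10 over the 76 genes and −0.60 over all genes, a difference of 0.49. After median ratio scaling Rpl10, Rpl7a and Rps25 lost their calls, though their log2 changes stayed negative. In that setting 3 other genes were called higher (Rpl31, Rpl39 and Rps27) and none lower. The ribosomal median had no stable sign: it was 0.45 after median ratio scaling and 0.01 after quantile normalization, −0.37 without LCM_GFP library 1, and 0.07, 0.02 and 0.09 without LCM_GFP libraries 2, 3 and 4. Its distance from the median of all genes was 0.57 and 0.30 under those scalings, 0.71 with a pseudocount of 0.1, 0.21 with one of 5, 0.25 without LCM_GFP library 1, and −0.07 with no filter on low values. Median ratio scaling itself moved the median of all genes by 0.47, and after it 59.7% of all calls were higher in LCM_GFP, against 39.0% as deposited.

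Rpl10, ENSMUSG00000008682 (chrX:71516151-71518474 on mm9), is a 60S protein next to the peptidyl transferase centre that is added late in assembly. It had 465, 197, 143 and 223 FPKM in LCM_GFP libraries, against 743, 701 and 824 FPKM in FACS_GFP libraries. Every laser-captured library lay below every sorted one. The means were 257 ± 143 FPKM in LCM_GFP (SD, n = 4) and 756 ± 62.1 FPKM in FACS_GFP (SD, n = 3), a log2 change of −1.70 ± 0.40 (SE, adjusted p = 0.0151 by limma).

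Rpl7a, ENSMUSG00000062647 (chr2:26766284-26768838 on mm9), is a 60S surface protein whose host transcript also carries small nucleolar RNAs in its introns. It had 557, 305, 699 and 202 FPKM in LCM_GFP libraries, against 1090, 884 and 1114 FPKM in FACS_GFP libraries. Again the groups did not overlap. The log2 change was −1.38 ± 0.43 (SE, adjusted p = 0.0434 by limma).

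Rps25, ENSMUSG00000009927 (chr9:44215797-44218488 on mm9), lies in the head of the 40S subunit and is needed for initiation at several internal ribosome entry sites. It had 287, 167, 187 and 205 FPKM in LCM_GFP libraries, against 375, 338 and 479 FPKM in FACS_GFP libraries, again without overlap. The log2 change was −0.92 ± 0.29 (SE, adjusted p = 0.0425 by limma).

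Counting genes whose groups did not overlap, 7 were lower in LCM_GFP than in FACS_GFP (the 3 above with Rpl10a, Rpl30, Rps3a and Rps9) and 2 were higher (Rpl31 and Rps27), where 31.2% and 17.0% of all genes were, 48.2% in all. Rps27 was named after its values were seen. Rpl31, a protein at the rim of the peptide exit tunnel, had 791, 536, 533 and 523 FPKM in LCM_GFP libraries, against 353, 319 and 474 FPKM in FACS_GFP libraries. Its log2 change of 0.64 ± 0.27 (SE) did not pass the test (adjusted p = 0.103 by limma). The other large positive differences did not pass either: 0.80 for Rpl41, the smallest ribosomal protein, 0.74 for Rpl35 and 0.73 for Rps19, with adjusted p of 0.183 to 0.223 in limma and overlapping groups.

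These calls rest on few libraries, and in simulated data of the same spread false calls in comparisons with LCM_GFP exceeded the share that the threshold allows. Without FACS_GFP library 1, 2 or 3, none of the 76 genes was called by limma, with 4, 5 and 3 at an unadjusted p under 0.05, while 2.46%, 2.59% and 2.39% of all genes fell. Without LCM_GFP library 1, 18 of the 76 (23.7%) and 26.1% of all genes fell, and with LCM_GFP libraries 2 and 4 alone, 21 (27.6%) and 35.4% of all genes. Without LCM_GFP library 2, 2 of the 76 fell and 23.5% of all genes, and without LCM_GFP library 4, 1 and 21.2%. Rpl10 lost its call in 4 of 18 alternative settings, Rpl7a in 10 and Rps25 in 12, and the log2 change of each stayed negative in all 18.

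Laser-captured GFP microglia were next set against wild-type sorted microglia. None of the 76 genes rose and 8 fell: Rpl10, Rpl7a, Rpl30 and Rplp1 of the 60S subunit, and Rps3a, Rps9, Rps10 and Rps25 of the 40S subunit (limma, adjusted p under 0.05 over 13415 genes). Of all genes tested, 12.3% rose and 19.1% fell. At an unadjusted p under 0.05 limma had 13 of the 76, 12 of them lower, and 44.3% of all genes in either direction. The median log2 change was −0.33 over the 76 genes and −0.59 over all genes. That distance of 0.26 did not hold its sign: it was −0.02 with a pseudocount of 5, −0.29 with no filter, −0.06 with sex as a covariate and −0.05 without LCM_GFP library 1. The ribosomal median was −0.65 without LCM_GFP library 1, −0.22 without LCM_GFP library 2, −0.15 without LCM_GFP library 4 and −0.17 without FACS_WT library 3. After median ratio scaling it was 0.22, and after quantile normalization −0.27. Median ratio scaling left 1 of the 76 genes higher and none lower, where 1834 of 13160 genes were higher and 9.40% lower. Groups did not overlap for 9 genes that were lower and for 1, Rpl31, that was higher, where 29.6% and 16.9% of all genes had such groups, 46.5% in all. The comparison uses the same LCM_GFP libraries as the one before, so the 2 are not independent.

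Rps3a, ENSMUSG00000028081 (chr3:85941862-85946624 on mm9), a 40S protein at the mRNA exit side, showed the largest decrease among the 8. It had 370, 112, 72.7 and 190 FPKM in LCM_GFP libraries, against 551, 482 and 891 FPKM in FACS_WT libraries. The log2 change was −1.99 ± 0.55 (SE, adjusted p = 0.0270 by limma). Against FACS_GFP libraries, at 377, 376 and 461 FPKM, its log2 change was −1.37 ± 0.52 (SE, adjusted p = 0.0777 by limma), so the call was made against FACS_WT alone. Whether the 2 changes differ was not tested.

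Rps9 (ENSMUSG00000006333, chr7:3655595-3658503 on mm9), near the mRNA entry channel, had 94.9, 42.6, 60.2 and 50.2 FPKM in LCM_GFP libraries, against 140, 148 and 214 FPKM in FACS_WT libraries. Its log2 change was −1.46 ± 0.38 (SE, adjusted p = 0.0205 by limma). Rps10 (ENSMUSG00000052146, chr17:27767367-27773574 on mm9), a protein of the 40S beak that is ubiquitinated when ribosomes collide, had 84.4, 50.8, 32.9 and 51.8 FPKM in LCM_GFP libraries, against 109, 104 and 190 FPKM in FACS_WT libraries. Neither gene's groups overlapped, and Rps10 changed by −1.30 ± 0.42 on the log2 scale (SE, adjusted p = 0.0454 by limma).

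Rpl30 (ENSMUSG00000058600, chr15:34370260-34373395 on mm9), a 60S protein that in yeast binds and represses its own transcript, had 408, 408, 648 and 510 FPKM in LCM_GFP libraries, against 814, 889 and 1173 FPKM in FACS_WT libraries. The first laser-captured library was among the lowest of its group here, unlike for most ribosomal protein genes. The log2 change was −0.96 ± 0.28 (SE, adjusted p = 0.0310 by limma). Rpl10, Rpl7a and Rps25 changed by −1.80, −1.71 and −1.11 on the log2 scale in this comparison, with adjusted p of 0.0123, 0.0227 and 0.0307 in limma.

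Without FACS_WT library 1, 2 or 3, none of the 8 calls was made, while 2.57%, 3.02% and 2.61% of all genes fell. None was made with sex as a covariate, where 6.54% of all genes fell. In that fit the difference rests on LCM_GFP library 2, the single male one, since all FACS_WT libraries are male. Without LCM_GFP library 1, 23 of the 76 genes (30.3%) and 25.0% of all genes fell. Without LCM_GFP library 2, 3 or 4, 5 fell in each case, beside 22.9%, 21.8% and 19.9% of all genes. With LCM_GFP libraries 2 and 4 alone, 24 (31.6%) and 32.8% of all genes fell. The log2 changes of all 8 stayed negative in each of the 18 alternatives.

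**Figure D3:**
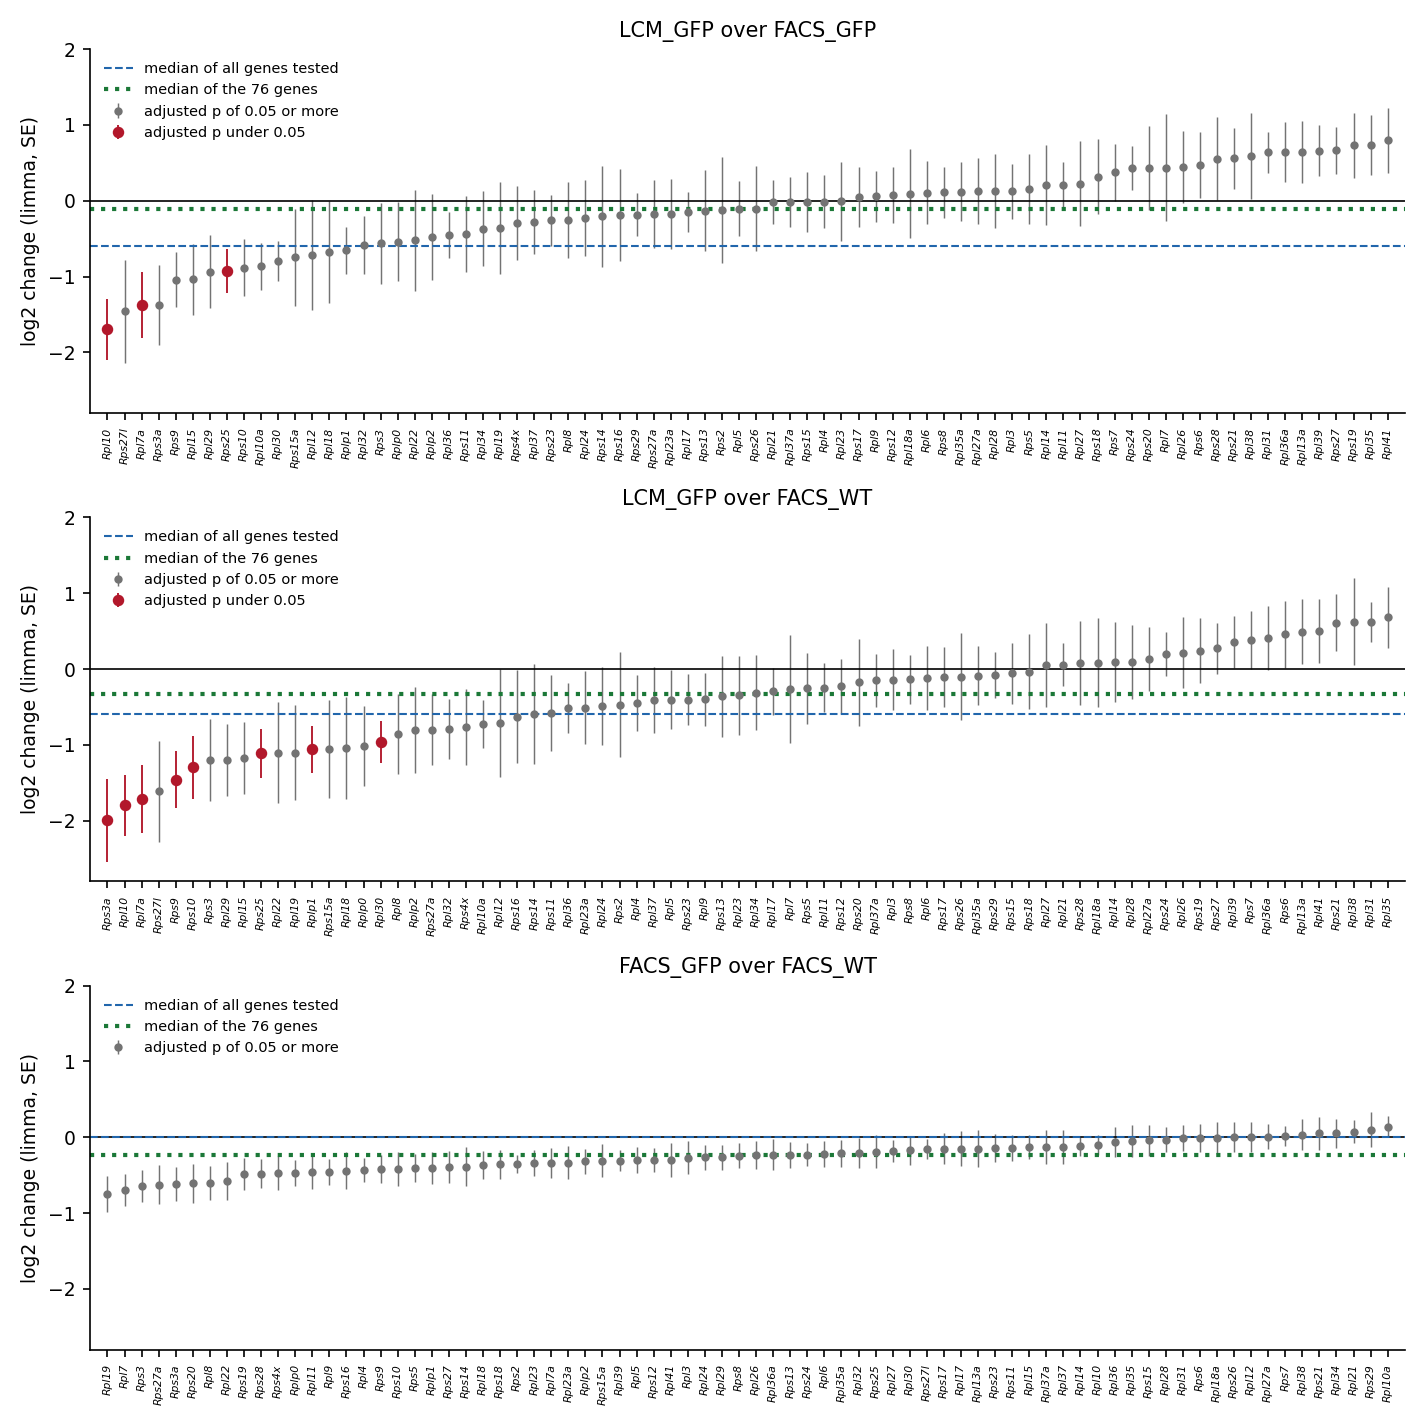
Log2 change of each of the 76 genes with its standard error (limma), ordered by size, for LCM_GFP over FACS_GFP, LCM_GFP over FACS_WT and FACS_GFP over FACS_WT. Red points have an adjusted p under 0.05 (3, 8 and 0 genes), the dashed line is the median of all genes tested (−0.60, −0.59 and 0.00) and the dotted line the median of the 76 genes (−0.10, −0.33 and −0.24).

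**Figure D4:**
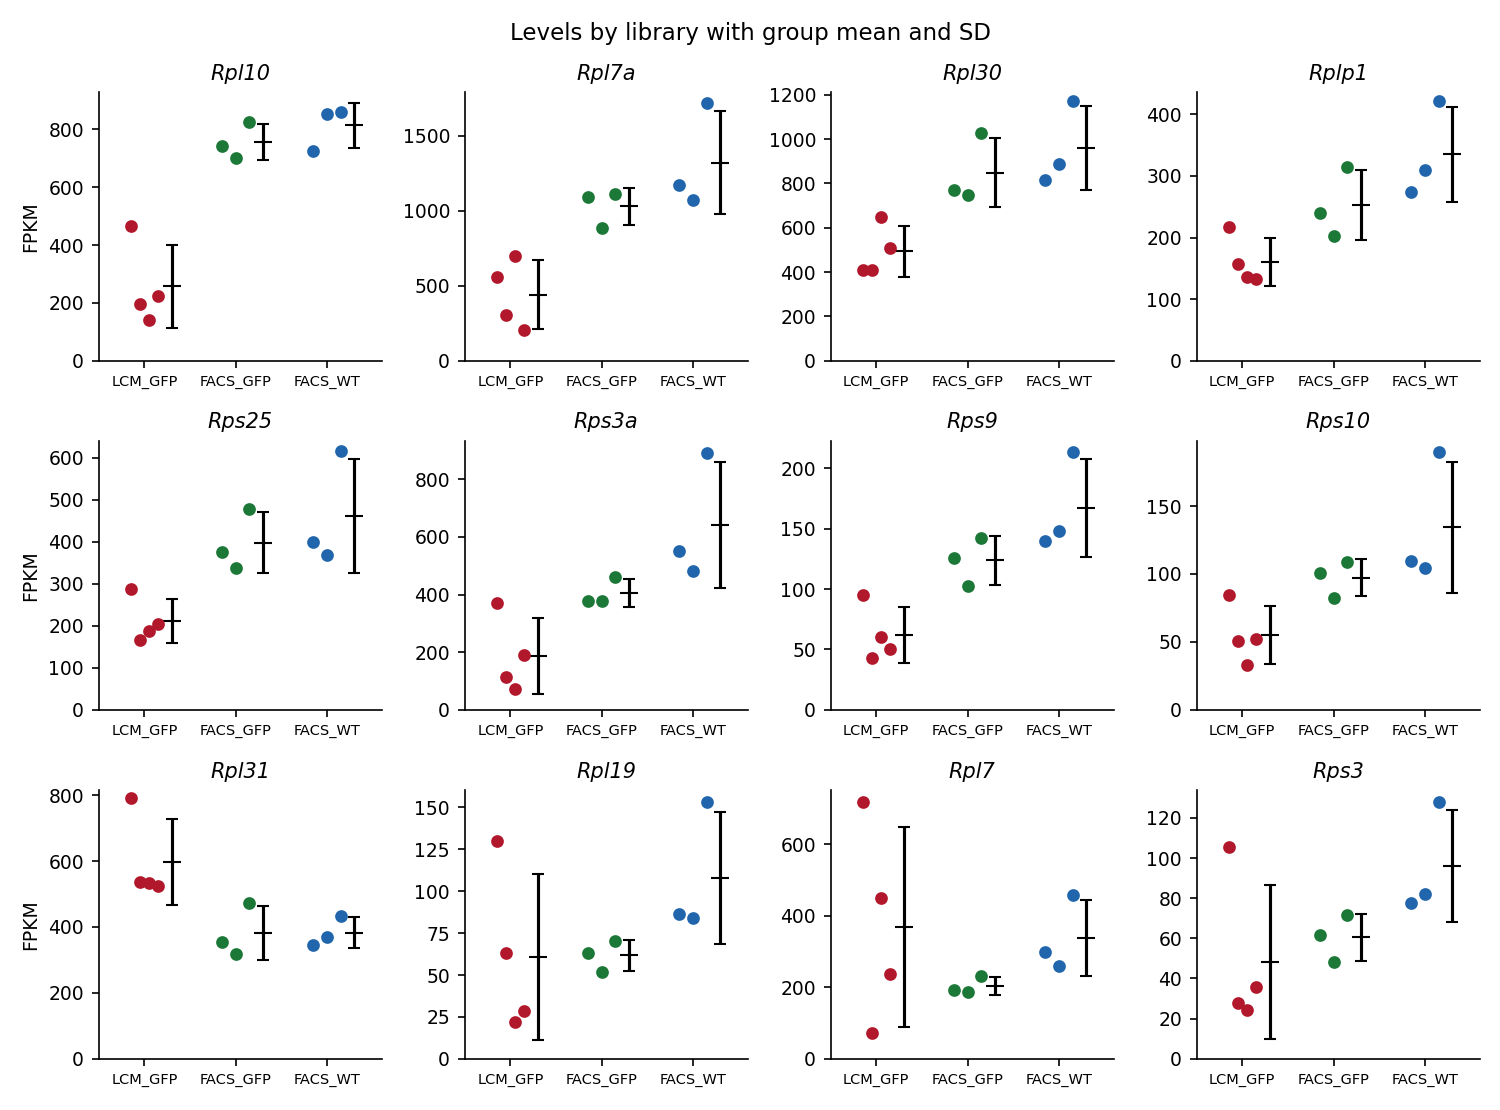
FPKM by library for the 8 genes lower in LCM_GFP than in FACS_WT, for Rpl31, which was higher in each LCM_GFP library than in each sorted library, and for Rpl19, Rpl7 and Rps3, which had the largest negative differences between FACS_GFP and FACS_WT. Points are libraries, and the black mark is the group mean with its SD.

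The relative amounts of ribosomal protein mRNAs were steadier among sorted than among laser-captured libraries. On the log2(FPKM + 1) scale, each gene was compared with its mean over the 6 sorted libraries (for a sorted library, over the other 5), and the median deviation of the library was then taken off. The spread of the 76 genes around that sorted profile was an SD of 0.78, 0.71, 0.85 and 0.68 in LCM_GFP libraries, 0.14, 0.15 and 0.17 in FACS_GFP libraries, and 0.13, 0.16 and 0.27 in FACS_WT libraries. In LCM_GFP libraries 65, 63, 56 and 66 genes lay within 2-fold of the profile, against 76 in each sorted library. As the profile is that of sorted libraries, these values hold the difference between methods as well as the spread among LCM_GFP libraries. Pearson correlations of log2 levels across the 76 genes, which share depth, length scaling and amplification within a library, were 0.77 to 0.87 between LCM_GFP libraries, 0.75 to 0.88 between LCM_GFP and sorted libraries, and 0.96 to 0.99 between sorted libraries. The range between LCM_GFP libraries was close to that between LCM_GFP and sorted libraries.

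Relative to the ribosomal median of the library, some genes stood lower or higher in all 4 laser-captured libraries than in any sorted library. Rpl10 was 1.14, 1.25, 0.833 and 1.59 times the ribosomal median in LCM_GFP libraries, against 3.88, 3.78 and 3.29 times in FACS_GFP and 3.15, 3.84 and 2.78 times in FACS_WT libraries. Rpl31 was 1.94, 3.42, 3.12 and 3.74 times the median in LCM_GFP libraries, against 1.84, 1.72 and 1.89 times in FACS_GFP and 1.50, 1.66 and 1.40 times in FACS_WT libraries. Rpl35, a 60S protein at the tunnel exit, was 0.426 to 0.764 times the median in LCM_GFP libraries, 0.281 to 0.362 times in FACS_GFP libraries and 0.254 to 0.296 times in FACS_WT libraries. With all libraries scaled to their ribosomal median before the fit, a setting chosen after the data were seen, Rpl10 was the single gene called lower against FACS_GFP, and Rpl10 and Rps3a were called lower against FACS_WT.

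**Figure D5:**
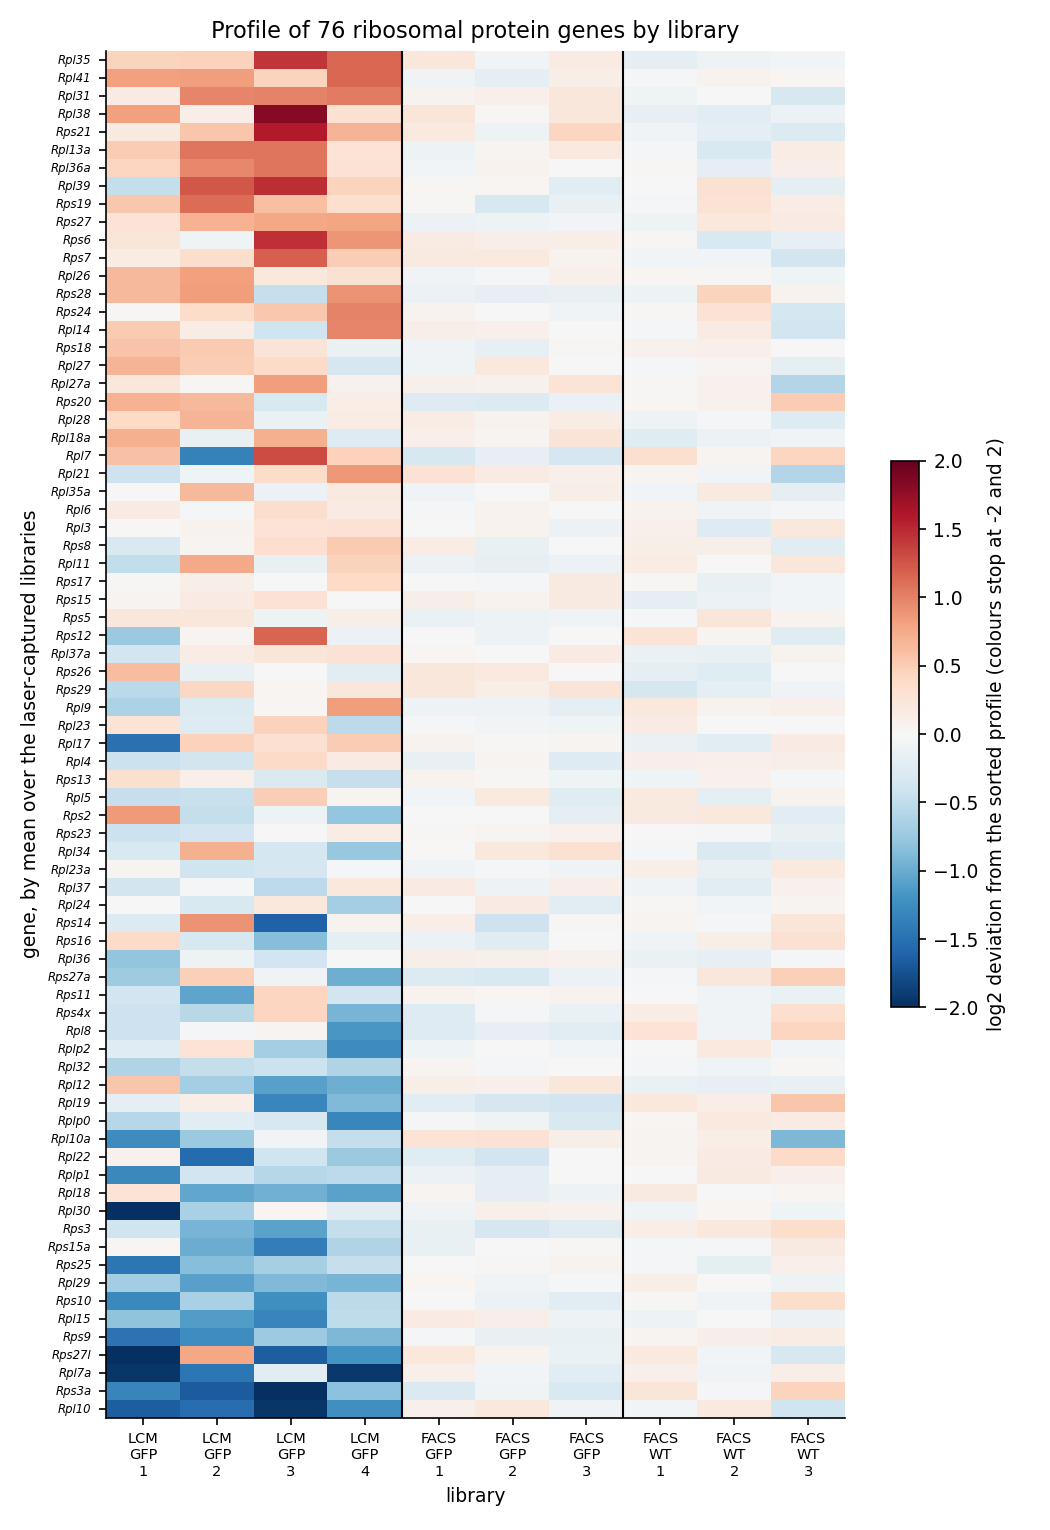
Each row is 1 of 76 ribosomal protein genes and each column a library, with colour for the log2 deviation of the gene from its mean over the sorted libraries (the other 5 for a sorted library), after taking off the library's median deviation. LCM_GFP columns spread widely (SD 0.68 to 0.85) with Rpl10, Rps3a and Rpl7a at the low end and Rpl35, Rpl41 and Rpl31 at the high end, while sorted columns stay pale (SD 0.13 to 0.27).

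Spread between replicates also set the genes apart. The median SD of log2(FPKM + 1) over the 76 genes was 0.76 in LCM_GFP, 0.25 in FACS_GFP and 0.32 in FACS_WT libraries, against 0.95, 0.13 and 0.17 over all genes. By this median, ribosomal protein genes varied less than the typical gene among LCM_GFP libraries, and more than the typical gene within each sorted group. The 76 genes each averaged 42.1 FPKM or more and were not matched with other genes by level. Whether level bears on these spreads was not tested. The most variable in LCM_GFP were Rpl12, Rpl18, Rpl7 and Rps2. Rpl12, a 60S protein at the base of the stalk, had 1003, 165, 122 and 124 FPKM in LCM_GFP libraries. Rps2 had 468, 71.5, 91.0 and 53.7 FPKM there. The least variable were Rpl17, Rpl30, Rpl31 and Rplp1: Rpl17 had 291, 436, 385 and 418 FPKM, and was lowest in the library in which most of the others were highest.

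By role, the P stalk is the flexible arm of the 60S subunit that recruits the GTPase translation factors. Its 3 genes had negative changes in each comparison, and 1 of them passed a test, Rplp1 in LCM_GFP against FACS_WT. Rplp1 had 217, 157, 135 and 133 FPKM in LCM_GFP libraries, 241, 203 and 315 FPKM in FACS_GFP libraries, and 274, 309 and 421 FPKM in FACS_WT libraries. Its log2 change was −1.06 ± 0.31 against FACS_WT (SE, adjusted p = 0.0334 by limma) and −0.65 ± 0.31 against FACS_GFP (SE, adjusted p = 0.133 by limma). Rplp0, which anchors the stalk, had 75.0, 36.5, 33.4 and 15.5 FPKM in LCM_GFP libraries, 52.8, 45.1 and 55.2 FPKM in FACS_GFP libraries, and 59.0, 65.4 and 91.7 FPKM in FACS_WT libraries. Rplp2 had 442, 243, 122 and 77.6 FPKM in LCM_GFP libraries, spanning the ranges of FACS_GFP (222 to 297 FPKM) and FACS_WT (267 to 375 FPKM).

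The 5S particle, formed by Rpl5, Rpl11 and 5S RNA, binds Mdm2 when ribosome assembly is disturbed. Rpl11 had 1569, 1456, 754 and 1096 FPKM in LCM_GFP libraries, 993, 854 and 1221 FPKM in FACS_GFP libraries, and 1246, 1163 and 1867 FPKM in FACS_WT libraries. Rpl5 had 255, 100.5, 189 and 131 FPKM in LCM_GFP libraries, 165, 167 and 180 FPKM in FACS_GFP libraries, and 205, 167 and 274 FPKM in FACS_WT libraries. Neither passed a test in any comparison, and their groups overlapped throughout.

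Rps6, the 40S protein phosphorylated by S6 kinase downstream of mTORC1, had 411, 127, 362 and 230 FPKM in LCM_GFP libraries, 184, 157 and 220 FPKM in FACS_GFP libraries, and 182, 153 and 235 FPKM in FACS_WT libraries. Its log2 change was 0.47 ± 0.43 in LCM_GFP over FACS_GFP (SE, adjusted p = 0.431 by limma). Of a list of 7 genes that form or flank the peptidyl transfer centre and tunnel, 1 fell in LCM_GFP against each sorted group, Rpl10 both times, with list medians of −0.01 and −0.45. Another list held 10 other proteins of the 40S head and mRNA channel and none of Rps9, Rps10 and Rps25. Its medians were 0.07 and −0.13. None of the 10 passed in limma in LCM_GFP against either sorted group, at an adjusted or an unadjusted p under 0.05. At the unadjusted threshold 44.9% and 44.3% of all genes passed. In FACS_GFP against FACS_WT the list median was −0.42 and none of the 10 was called. There 5 of the 10 had an unadjusted p under 0.05 in limma, against 13.1% of all genes. Among 19 genes that carry mutations in human Diamond-Blackfan anaemia, none passed against FACS_GFP (median 0.21) and 1, Rps10, fell against FACS_WT (median −0.08). Of all genes tested, 32.1% and 31.4% were called in LCM_GFP against FACS_GFP and FACS_WT.

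Rps27l, a paralog of Rps27 induced by p53, was the single paralog in the list with levels high enough to test. It had 8.39, 65.9, 11.2 and 14.8 FPKM in LCM_GFP libraries, against 53.7, 43.6 and 54.2 FPKM in FACS_GFP and 57.1, 50.2 and 61.5 FPKM in FACS_WT libraries. LCM_GFP library 2 lay above all 6 sorted libraries and the other 3 far below them. The log2 changes of −1.46 ± 0.67 and −1.61 ± 0.67 (SE) did not pass the test (adjusted p = 0.130 and 0.0992 by limma). Without LCM_GFP library 2, Rps27l was called lower against both sorted groups (adjusted p = 0.00650 and 0.00507 by limma), and with group-wise weights it was called lower against FACS_WT.

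A further list held 7 ribosomal genes that are often used as reference genes in quantitative PCR. Of all genes, 32.1% were called in LCM_GFP over FACS_GFP, 31.4% in LCM_GFP over FACS_WT and 0.110% in FACS_GFP over FACS_WT. None of Rplp0, Rpl13a, Rpl19, Rpl27, Rpl32, Rpl37a and Rps18 passed a test in any comparison, with list medians of −0.02 in LCM_GFP over FACS_GFP, −0.15 over FACS_WT, and −0.21 in FACS_GFP over FACS_WT. Their spread was wide in the laser-captured group: Rps18 had 1112, 417, 339 and 247 FPKM in LCM_GFP libraries, 347, 289 and 449 FPKM in FACS_GFP libraries, and 405, 417 and 561 FPKM in FACS_WT libraries. Among 11 reference genes that are not ribosomal, Gapdh averaged 3409 ± 940 FPKM in LCM_GFP (SD, n = 4), 2676 ± 293 FPKM in FACS_GFP (SD, n = 3) and 2823 ± 150.4 FPKM in FACS_WT libraries (SD, n = 3).

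Between sorted GFP and sorted wild-type microglia, no ribosomal protein gene passed the test, while 67 of 76 had a negative log2 change. The median was −0.24 over the 76 genes, against 0.00 over all 11814 genes tested. Of all genes, 0.0339% were called higher and 0.0762% lower, 0.110% in all. At an unadjusted p under 0.05 limma had 14 of the 76 genes, all lower, where 13.1% of all genes passed in either direction. That count rested on single libraries: it was 4, 2 and 29 without FACS_GFP libraries 1, 2 and 3, and 21, 15 and 6 without FACS_WT libraries 1, 2 and 3. It was 28 after quantile normalization and 23 with sex as a covariate, where the difference rests on FACS_GFP library 2, the single male one. Groups did not overlap for 8 genes, all lower in FACS_GFP (Rpl4, Rpl7, Rpl9, Rpl19, Rplp0, Rps2, Rps3 and Rps3a), where 9.29% of all genes were, and 20.8% did not overlap in either direction. Rpl4 and Rpl9 were named after their values were seen.

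Rpl19, a protein that bridges the subunits, had the largest negative difference in FACS_GFP. It had 63.2, 51.8 and 70.3 FPKM in FACS_GFP libraries, against 86.2, 83.8 and 153 FPKM in FACS_WT libraries, a log2 change of −0.75 ± 0.23 (SE, adjusted p = 0.286 by limma). Rpl7 had 191, 186 and 232 FPKM in FACS_GFP libraries, against 298, 259 and 457 FPKM in FACS_WT libraries, a log2 change of −0.70 ± 0.21 (SE, adjusted p = 0.278 by limma). Rps3, which lines the mRNA entry, had 61.5, 48.4 and 71.4 FPKM in FACS_GFP libraries, against 77.8, 82.2 and 128 FPKM in FACS_WT libraries, a log2 change of −0.64 ± 0.21 (SE, adjusted p = 0.298 by limma). In these 3 genes FACS_WT library 3 was the highest of all sorted libraries, and without it the log2 changes were −0.47, −0.46 and −0.42, none of which passed the test.

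The largest positive differences were small: 0.14 for Rpl10a, 0.10 for Rps29 and 0.08 for Rpl21. Without FACS_WT library 3, in which 72 of 76 genes were highest in their group, the ribosomal median log2 change was −0.09, and without FACS_GFP library 2 it was −0.14. The single male FACS_GFP library, library 2, had a median ribosomal level of 186 FPKM, against 230, 222 and 310 FPKM in the 3 male FACS_WT libraries. With sex as a covariate the median change was −0.45, which rests on FACS_GFP library 2 alone, since all FACS_WT libraries are male. The authors' deposited table calls 3 of the 78 genes with a row of their own lower in FACS_GFP than in FACS_WT, and 0.217% of all genes tested there. In the authors' deposited table these are Rpl19 (log2 fold −0.78, q = 0.0228), Rpl7 (−0.72, q = 0.0280) and Rps3a (−0.63, q = 0.0150). For LCM_GFP the authors' deposited table calls Rps3a lower against FACS_WT (log2 fold −2.28, q = 0.0478) and no ribosomal protein gene lower against FACS_GFP, where it calls 0.632% and 0.655% of all genes tested lower.

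Processed pseudogenes share sequence with these genes, and how reads that map to several places were treated is not given in the sources used here. The table holds 172 rows named as pseudogenes of ribosomal proteins. Their summed level was 395 to 544 FPKM in LCM_GFP libraries, 681 to 714 FPKM in FACS_GFP libraries and 658 to 705 FPKM in FACS_WT libraries. That came to 1.30% to 2.48%, 2.36% to 3.38% and 1.84% to 2.78% of the ribosomal protein sums. Among the rows that passed the filter, 1 rose and 19 of 67 fell in LCM_GFP against FACS_GFP, with a median log2 change of −0.92, and 1 rose and 15 of 66 fell against FACS_WT. Of all genes, 12.5% rose and 19.6% fell against FACS_GFP, with a median of −0.60. Against FACS_WT, 12.3% of all genes rose and 19.1% fell. Pseudogene rows of Rpl7a, 8 in all, summed to 0.849 to 1.85 FPKM in LCM_GFP libraries, 4.26 to 5.28 FPKM in FACS_GFP libraries and 5.03 to 5.92 FPKM in FACS_WT libraries. Adding the pseudogene rows to their parent left the change in LCM_GFP over FACS_GFP at −1.69 for Rpl10, −1.38 for Rpl7a and −0.92 for Rps25. For Rps19, whose 9 pseudogene rows held 21.4% of the joint level, the joint change was 0.48.

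The rest of the translation machinery was read against 32.1% and 31.4% of all genes called in LCM_GFP against FACS_GFP and FACS_WT. Of 13 elongation factor genes, 1 rose and 1 fell in LCM_GFP against both sorted groups. Eef1a2, the elongation factor form of neurons and muscle, had 2.85, 56.7, 10.4 and 43.6 FPKM in LCM_GFP libraries. It was listed at 0.0243, 0 and 0.00993 FPKM in FACS_GFP libraries and at 0, 0.0121 and 0 FPKM in FACS_WT libraries. Eef2k, the kinase that inhibits elongation factor 2, averaged 3.47 ± 2.14 FPKM in LCM_GFP, 29.2 ± 3.29 FPKM in FACS_GFP and 30.4 ± 4.87 FPKM in FACS_WT libraries. Its log2 change was −2.87 ± 0.49 against FACS_GFP (SE, adjusted p = 0.00378 by limma).

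Among 32 initiation factor genes none rose, 3 fell against FACS_GFP (Eif4a2, Eif4ebp1 and Eif1a) and 2 fell against FACS_WT (Eif4ebp1 and Eif1a). Eif4ebp1 encodes a repressor of cap-dependent initiation that mTORC1 inactivates. It averaged 2.29 ± 2.37 FPKM in LCM_GFP (SD, n = 4), 13.9 ± 1.06 FPKM in FACS_GFP (SD, n = 3) and 19.0 ± 4.30 FPKM in FACS_WT libraries (SD, n = 3). Of 37 ribosome biogenesis genes, none rose, 1 fell against FACS_GFP (Rrs1) and 4 fell against FACS_WT (Rrs1, Nop2, Heatr1 and Utp3). Of the 73 mitochondrial ribosomal genes, 2 rose and 5 fell against FACS_GFP, and 3 rose and 6 fell against FACS_WT, with medians of −0.56 and −0.64. In FACS_GFP against FACS_WT no gene of these 4 lists passed the test. At an unadjusted p under 0.05 limma had 4 of 12 elongation, 8 of 32 initiation, 5 of 37 biogenesis and 11 of 73 mitochondrial ribosomal genes, where it had 13.1% of all genes.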

How the data were processed

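RNA-seq of 10 libraries in 3 groups was analysed from processed tables. The tools named per the submitters' processing notes are TopHat2 (2.0.4) with Bowtie2 (2.0.0), Cufflinks (2.0.2) and CASAVA (1.8.2), and the build is mm9. How multi-mapped reads were handled is not given in the sources used here. The deposited expression table holds FPKM values per gene and library, per the file headers. A second table holds the authors' log2 fold changes with p-values and q-values for the 3 group pairs, per the file headers, and its values are printed only where named as the authors'. In it Rpl13a has no row of its own.

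Here, log2(FPKM + 1) was fitted with limma 3.58.1 (trend and robust, R 4.3.3) over all genes with 1 FPKM or more in at least 3 of the libraries compared, with only the 2 groups compared in each fit and no covariate. The tests were two-sided with Benjamini-Hochberg adjustment over all genes and a threshold of 0.05. The script was tested on simulated data with the spread of these libraries. There the false calls in both LCM_GFP comparisons made up more of the calls than the threshold allows, and most differences of up to 4-fold that had been put in were missed, so calls near the threshold are uncertain and a gene without a call may still differ. Fold changes on this scale understate the change of low genes. Where a symbol had several rows, lists used the row with the higher mean. The files give no depth, and low values resolved into whole fragments only in part. At the depth that fitted best, 64.0% to 81.5% of them lay within 0.2 of a whole fragment, so no depth is given here. Files of the series that hold excerpts of the comparison table were not used. The labels call the libraries biological replicates without naming the animals, so p-values measure the spread between these libraries.

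Genes were named by rule: the 8 highest, those called, 5 short lists (P stalk, 5S particle, restricted paralogs, reference genes and Rps6), the most and least variable in LCM_GFP, the 3 largest changes in each direction, those at 0 throughout, and from other lists the highest genes and those called. The genes and lists were chosen with earlier results of these data known. Alternatives varied the pseudocount, filter, scaling, covariates, weights and libraries.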

Additional observations from a re-analysis of the deposited data

Results flagged for a closer look

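Among the 4 LCM_GFP libraries, 11 of 40 values tested with Dixon's criterion had 1 library far from the other 3, where chance flags about 1 in 20 groups of independent values. The 40 values are not such a set, since some genes were named for their spread in LCM_GFP and all share the same libraries, so the count cannot be read against that rate. In 10 of the 11 the library that stood apart was LCM_GFP library 1, and it was the highest each time. These were the summed level of the 79 ribosomal protein genes at 41693 FPKM, their median at 408 FPKM, and 8 single genes. The genes were Rpl23a at 1455 FPKM, Rpl32 at 1017 FPKM, Rpl12 at 1003 FPKM, Rpl18 at 965 FPKM, Rpl31 at 791 FPKM, Rps2 at 468 FPKM, Rpl37a at 230 FPKM and Rps3 at 105 FPKM. The remaining value was that of Rps27l in LCM_GFP library 2, 65.9 FPKM. The causes were not tested. Groups of 3 libraries were too small for this criterion.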

How the results depend on the processing

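No alternative that was run turned the sign of a gene that passed the test. Deviations of same-numbered FACS_GFP and FACS_WT libraries correlated at 0.141, 0.0102 and 0.214, and those of differently numbered ones at −0.224 to 0.0885. Those of same-numbered LCM_GFP and sorted libraries correlated at −0.0401 to 0.00635. With so few libraries, these values cannot settle whether replicate numbers pair libraries. The replicate block left out LCM_GFP library 4, since the sorted groups have no library of that number. With the block, 1 gene fell in LCM_GFP against FACS_GFP, where 16.9% of all genes fell. Against FACS_WT 3 fell, beside 16.3% of all genes. Leaving out LCM_GFP library 4 without the block gave 1 and 5 lower. With the block none was called in FACS_GFP against FACS_WT, with 34 at an unadjusted p under 0.05 in limma. Median ratio scaling gave 3 higher (Rpl31, Rpl39 and Rps27) and 0 lower against FACS_GFP, with a median of 0.45. It gave 1 higher and 0 lower against FACS_WT, with a median of 0.22. Over all genes, 1856 of 13183 and 1834 of 13160 were called higher in that setting. Quantile normalization gave 2 higher against FACS_GFP, where 1909 of 13403 genes were. With sex as a covariate 1 fell against FACS_GFP and 0 against FACS_WT, where 1760 of all genes were called in place of 4207. Against FACS_WT that setting rests on the single male LCM_GFP library, since all FACS_WT libraries are male. Group-wise weights gave 5 lower against FACS_WT. Scaling to the ribosomal median gave 1 and 2 lower, with 2764 and 2332 of all genes called. In FACS_GFP over FACS_WT it gave a median of 0.036, which it holds near 0 by construction, and 27 calls over all genes in place of 13. A mean of at least 5 FPKM left 2579 and 2567 calls over all genes, and no filter left 7 in FACS_GFP against FACS_WT. LCM_GFP libraries 2 and 4 alone gave 21 and 24 lower. Leaving out 1 library at a time gave 0 to 18 lower against FACS_GFP and 0 to 23 against FACS_WT. Over all genes it gave 1042 to 5434 calls against FACS_GFP, 1089 to 5257 against FACS_WT and 4 to 15 in FACS_GFP against FACS_WT. Causes were not tested. With no depth in the files, counting error cannot be told apart from other spread, and FPKM of genes with near-identical copies is uncertain.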
